A study of Mus musculus with 2 samples.

Results

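Contigs far from annotated genes were examined in the liver of mouse embryos. A contig here is a stretch of 1 DNA strand that the sequenced RNA covered without a break, as the study's authors listed it on the mouse genome build mm9. Far contigs were chosen by their length, signal and distance to genes: each was at least 200 nt long, had a signal of at least 0.5 and lay more than 10 kb from every gene of the ENSEMBL annotation deposited with it, on either strand. The signal is the authors' measure of coverage, and it equalled 0.01529 times the mean number of aligned bases on each base of the contig, so that 0.5 stands for 32.7 aligned bases on each base. Chromosome M was left out. These rules found 700 contigs among 53181 of the same length and signal, or 1.32%, and among 677743 contigs in all. Of the 53181, 2233 touched no annotated exon on their own strand, and the far contigs made up 31.3% of those. These 3 values are therefore given as a description only.

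The material was liver of C57BL/6J embryos at day 18, from littermates that the labels give as male and female together. Poly(A)+ RNA of more than 200 nt was depleted of ribosomal RNA and sequenced in 2 stranded libraries of paired reads. The libraries are biological replicates 1 and 2 of 1 group, they carry 1 donor identifier, and no treatment, mutant or other condition was compared. With 2 libraries and 1 group there is no test, and each replicate difference below is a comparison of these libraries. Replicate 1 had 159127988 estimated counts of mouse genes and 125662357 reads across splice junctions, and replicate 2 had 136904873 and 105325114. The 5 hepatocyte markers summed to 134649 TPM in replicate 1 and 138978 in replicate 2, and the 4 erythroid markers to 77580 and 70765 TPM (TPM is transcript abundance scaled to the same total in each library). Both libraries therefore carried the defining RNAs of a fetal liver. The 5 pancreas acinar markers summed to 51.0 TPM in replicate 1 and 0.74 in replicate 2, where Prss2 and Cel were listed at 0, and the 4 striated muscle markers to 22.9 and 21.5 TPM. Of these 4, Acta1, Ckm and Mylpf were higher in replicate 1, and Tnnc1 was lower, at 7.67 TPM in replicate 1 and 14.97 in replicate 2.

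The libraries went against the label of mixed sexes. Reads across junctions of Xist, the RNA that coats the inactive X chromosome of female cells, numbered 9814 in replicate 1 and 1 in replicate 2. Reads across junctions of the Y-linked gene Ddx3y numbered 0 in replicate 1 and 4132 in replicate 2. Any difference between the replicates is therefore also a difference between a library with Xist and a library with Y-linked RNA, and these cannot be told apart. The RPKM tables on mm9 number their paired values 1 and 2, and there Xist had 0.0362 in value 1 and 27.05 in value 2, the other way round. Of 47 genes more than 4-fold apart in TPM on the newer build, 42 ran opposite to the numbering of the RPKM values and 4 ran with it. The RPKM values are therefore called value 1 and value 2 below and are not assigned to a replicate.

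RNA polymerase II transcribes much of the genome outside protein-coding genes. Long noncoding RNAs are spliced and polyadenylated like messenger RNAs but encode no known protein, and many are made at low level in a few tissues. Processed pseudogenes are copies of messenger RNAs that were written back into the genome. They lack the introns of the parent gene and may have no promoter of their own, and reads from the parent's RNA can align to a close copy.

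For spliced contigs, GENCODE release M21 on the newer build GRCm38 was searched between the same flanking genes, on the same strand, for an intron of exactly the same length. Coordinates of the builds were not converted, and the position of a contig was not compared with that of a GENCODE gene. The joints below are those of the matched genes with many junction reads, read from the GENCODE transcripts, with the upstream exon in lower case and the downstream exon in capitals, 40 nt of each. They show which bases the spliced reads would join.
1810008I18Rik: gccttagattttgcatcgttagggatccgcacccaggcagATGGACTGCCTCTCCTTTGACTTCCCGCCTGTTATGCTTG
Gm27216: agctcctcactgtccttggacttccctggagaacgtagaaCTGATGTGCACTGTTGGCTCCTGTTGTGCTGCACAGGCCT
4833411C07Rik: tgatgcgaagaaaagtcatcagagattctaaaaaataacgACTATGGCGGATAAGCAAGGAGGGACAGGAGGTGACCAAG
I830127L07Rik: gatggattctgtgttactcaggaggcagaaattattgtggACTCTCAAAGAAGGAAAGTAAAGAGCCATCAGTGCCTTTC
Gm8883: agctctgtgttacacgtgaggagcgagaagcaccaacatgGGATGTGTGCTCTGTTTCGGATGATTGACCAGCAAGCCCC
Gm48633: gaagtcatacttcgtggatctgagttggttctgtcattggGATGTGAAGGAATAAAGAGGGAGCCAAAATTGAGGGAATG

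In GRCm38 the upstream and downstream pieces were chr7:65804293-65804332 and chr7:65805814-65805853 on the plus strand for 1810008I18Rik. They were chr9:83254416-83254455 and chr9:83253643-83253682 on the minus strand for Gm27216, and chr8:10900112-10900151 and chr8:10900265-10900304 on the plus strand for 4833411C07Rik. They were chr15:75133689-75133728 and chr15:75131853-75131892 on the minus strand for I830127L07Rik, and chr1:71888675-71888714 and chr1:71890304-71890343 on the plus strand for Gm8883. For Gm48633 they were chr12:7949906-7949945 and chr12:7912569-7912608 on the minus strand. All 6 are noncoding exons in GENCODE M21: I830127L07Rik is annotated as a transcribed pseudogene, 4833411C07Rik as a processed transcript and the other 4 as long intergenic noncoding RNAs.

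For the strongest contigs and for contigs without a junction end, the copies that lay between the same flanking genes on the same strand were set against the protein-coding transcript most like them. The next windows are 60 nt each from the coding sequence of the parent and the matching stretch of the copy, with every base that differs in capitals. They show which bases tell a read of the copy from a read of its parent. Over the windows made in the same way for the other contigs, the differences ranged from 0 to 12.
Gm8797: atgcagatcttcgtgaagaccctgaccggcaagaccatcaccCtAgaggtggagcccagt
Ubb: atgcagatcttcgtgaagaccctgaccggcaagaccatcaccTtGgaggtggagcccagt
Gm20281: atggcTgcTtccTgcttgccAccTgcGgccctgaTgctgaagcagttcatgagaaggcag
Lyrm2: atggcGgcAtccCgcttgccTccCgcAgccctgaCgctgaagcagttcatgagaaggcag
Gm7858: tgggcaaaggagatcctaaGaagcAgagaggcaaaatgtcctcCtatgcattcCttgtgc
Hmgb1: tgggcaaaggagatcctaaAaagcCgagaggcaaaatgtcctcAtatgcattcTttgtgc

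The windows differed at 2 bases for Gm8797 and Ubb, a polyubiquitin gene, at 7 for Gm20281 and Lyrm2, a small mitochondrial protein gene, and at 4 for Gm7858 and Hmgb1, a chromatin protein gene. GENCODE M21 lists Gm8797 as protein-coding, and Gm20281 and Gm7858 as processed pseudogenes. In GRCm38 the copies' windows were chr3:5750904-5750963 on the plus strand, chr1:102458863-102458922 on the minus strand and chr1:29930094-29930153 on the plus strand. The parents' windows were chr11:62552830-62552889 on the plus strand for Ubb and chr5:149050677-149050736 on the minus strand for Hmgb1. The window of Lyrm2 lay between chr4:32800291 and chr4:32800624 on the plus strand, with an intron left out.

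The far contigs ranged widely in length and signal, for both of which the rule set a minimum. Their median length was 750 nt, with 80% of them between 266 and 4874 nt, and the longest had 22405 nt. Their median signal was 0.998, and 351 of the 700 stood under 1, while 24 reached 50 or more. The nearest annotated gene was 33412 nt away at the median, over 50 kb away for 261 contigs and over 200 kb away for 63. The farthest, 3051 nt on the plus strand of chromosome 1 at chr1:27957271-27960321 in mm9, lay 670500 nt from its nearest gene. The plus strand held 337 far contigs and the minus strand 363, and chromosome 1 had most, with 84. Joining contigs of 1 strand within 10 kb gave 592 groups, of which 520 were single contigs and 18 held 3 or more. The authors' score, a value per contig that no source used here defines, was 0 for 697 far contigs and 0.01 for 3. With the same length and signal minimum, it was also 0 for 50846 of 50948 contigs on an annotated exon. Outside genes but within 10 kb of one, it was 0 for 619 of 621, so a score of 0 does not set far contigs apart.

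The contigs next to each threshold varied in length and signal. The shortest far contigs had 200, 201 and 201 nt, with signals of 0.533, 3.32 and 0.608, and those just too short had 199, 199 and 198 nt, with signals of 0.526, 1.17 and 3.61. The weakest far contigs had signals of 0.501, 0.502 and 0.502, and those just too weak had 0.499, 0.499 and 0.498. One of these last was 11043 nt long. The far contigs nearest to a gene lay 10012, 10037 and 10103 nt away, and those just too near lay 9993, 9931 and 9908 nt away. The former had 9689, 212 and 350 nt with signals of 1.22, 25.8 and 0.501. The latter had 620, 1966 and 2601 nt with signals of 1.1, 1.36 and 1.32.

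Splicing was found in part of the far contigs. A junction end of at least 2 reads, taken here as the sign of splicing, lay inside 416 of 700, or 59.4%, and junctions of at least 10 reads in 274. In all, 2541 junctions of at least 2 reads had an end in a far contig, with 42158 reads in replicate 1 and 33678 in replicate 2. Of these junctions, 1179 had both ends in 1 far contig and 213 joined different far contigs. The list's flag A was 0 for all 2541. Its flag C, whose meaning is not given in the sources used here, was 1 for 1314 and 0 for 1227. Junctions with C of 1 spanned 3887 nt and had 8 reads at the median, and those with C of 0 spanned 293 nt and had 3 reads. An intron under 50 nt was given for 135 of the 2541 junctions and one over 100000 nt for 370, and whether such junctions are splicing was not tested.

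Long far contigs nearly always held a junction end and short ones less often. The share was 40.8% of 228 contigs of 200 to under 500 nt, 45.4% of 207 of 500 to under 1000 nt, 73.2% of 112 of 1000 to under 2000 nt and 96.1% of 153 of 2000 nt or more. Among 621 contigs outside genes but within 10 kb of one, the shares over the same length classes were 50.3%, 51.4%, 66.4% and 79.9%. Among 397 contigs in a gene span on the same strand but outside exons they were 54.1%, 64.9%, 67.7% and 81.1%, and among 515 in a gene span of the other strand 35.2%, 67.9%, 68.8% and 80.1%. Among 50948 contigs on an annotated exon they were 98.7%, 97.9%, 98.5% and 99.5%. The far contigs thus stood below the exon contigs in every length class and above the contigs near genes in both classes from 1000 nt up. A longer contig offers more places for a junction end, and these shares were not tested.

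**Figure D1:**
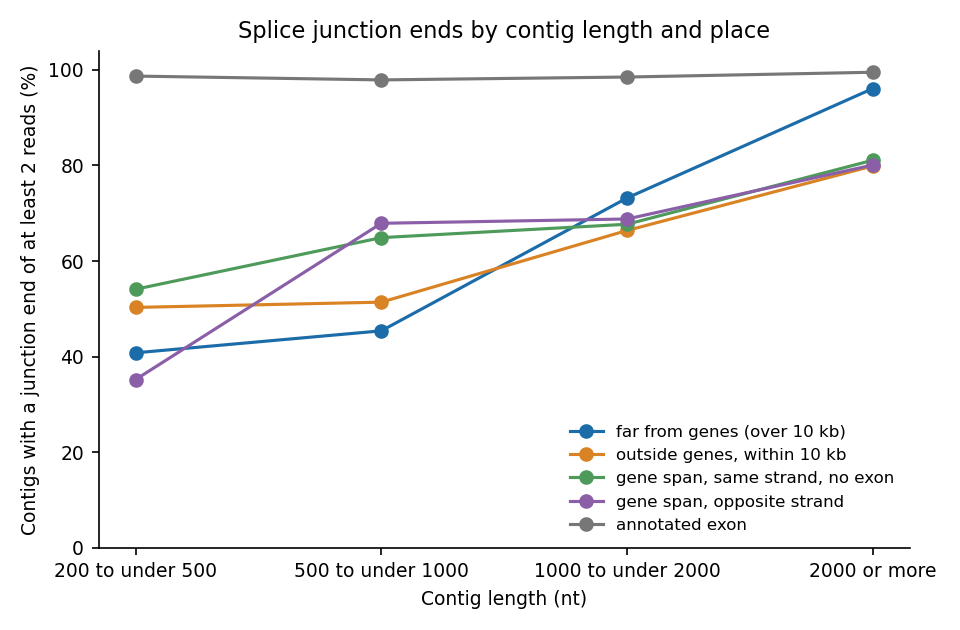
Share of contigs that held a junction end of at least 2 reads (percent, vertical axis) by contig length (nt, horizontal axis), for far contigs and 4 other classes of contigs with the same length and signal minimum. Far contigs ranged from 40.8% in the shortest class to 96.1% in the longest, while contigs on annotated exons stayed at 97.9% or more.

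The 10 most used junctions with both ends in far contigs all matched a noncoding gene or pseudogene of the later annotation. Of the far contigs, 90 carried a junction whose intron length equalled that of 1 or more GENCODE M21 introns between the same flanking genes on the same strand, or 21.6% of those with a junction. These matches named 74 genes through 158 junctions. By type, 53 were long intergenic noncoding RNAs, 9 protein-coding, 4 processed transcripts, 3 antisense RNAs, 4 unprocessed pseudogenes of either status and 1 a sense intronic RNA. Every M21 intron length was found for 32 genes, 19 of which had 2 or more introns. For 8 genes the matched junctions had fewer than 10 reads in all, and those matches are the least certain. The annotation of the TPM tables on mm10 held 20 of the 74, and 9 of these had at least 1 TPM in both replicates.

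Gm27216, a long intergenic noncoding RNA, had the most junction reads. All 6 of its intron lengths were found between Hmgn3 and Lca5, with 2975 reads in replicate 1 and 2980 in replicate 2, and its level was 33.3 TPM in replicate 1 and 36.7 in replicate 2. After scaling by all junction reads, the log2 ratio of replicate 1 over replicate 2 was -0.26. Its matched junctions had ends in the longest far contig, chr9:83125255-83147659 on the minus strand of mm9, which had a signal of 1.04 and lay 84963 nt from Hmgn3. The joint printed above, of an intron of 733 nt, led into that contig from a second one upstream. It had 1000 reads in replicate 1 and 922 in replicate 2.

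1810008I18Rik, between Gm7551 and Pcsk6, had the single junction with most reads. Its intron of 1481 nt had 2303 reads in replicate 1 and 727 in replicate 2. After scaling by all junction reads, this was a replicate 1 over replicate 2 log2 ratio of 1.41. The TPM values, 67.9 in replicate 1 and 26.5 in replicate 2, ran in the same direction with a log2 ratio of 1.36. The contig, chr7:72947829-72955335 on the plus strand of mm9, was 7507 nt long with a signal of 9.34.

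Gm8883 had 1549 reads over its matched junctions in replicate 1 and 1193 in replicate 2, and 38.1 and 38.4 TPM. I830127L07Rik, a pseudogene between the lymphocyte antigen genes Ly6c2 and Ly6g, had 1328 and 1077 junction reads and 19.0 and 20.1 TPM. After scaling by all junction reads, which were 1.19 times as many in replicate 1, the log2 ratios were 0.12 for Gm8883 and 0.05 for I830127L07Rik. Lockd, a noncoding RNA gene downstream of the cell cycle inhibitor gene Cdkn1b, had 482 junction reads in replicate 1 and 525 in replicate 2, and 48.7 and 60.2 TPM. Its main intron of 22045 nt led from outside the far contigs into 1 of them. The intron of Gm48633 spanned 37297 nt and joined a pair of far contigs with 296 reads in replicate 1 and 204 in replicate 2. Gm30262, between ENSMUSG00000087191 and Krr1, had 688 and 436 reads over 3 matched junctions.

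**Figure D2:**
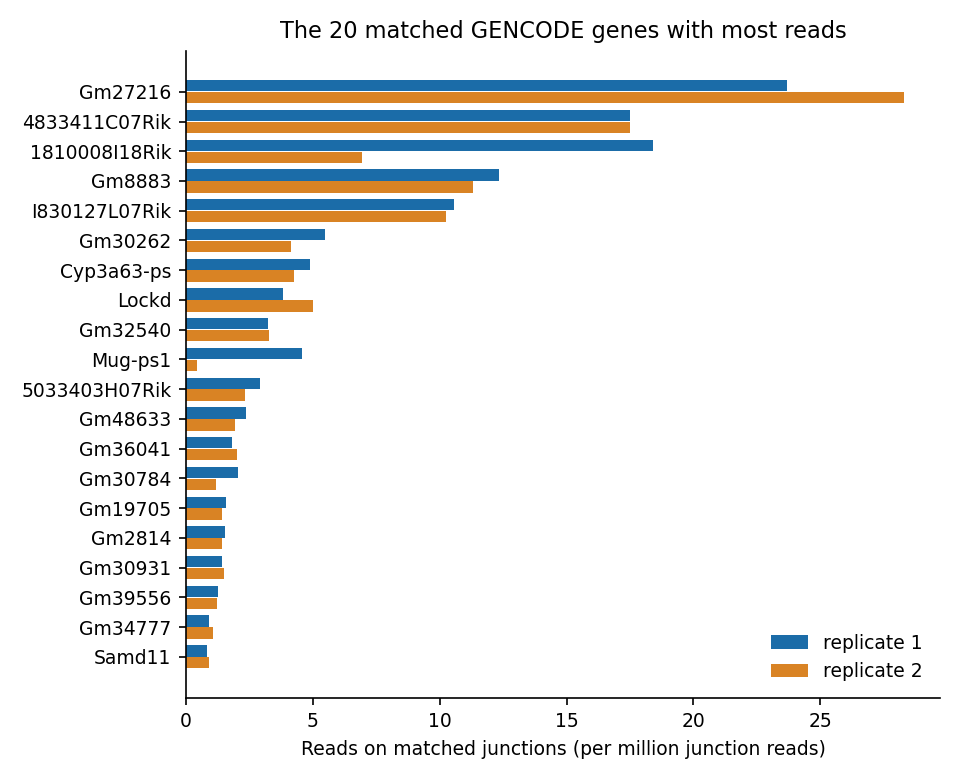
Reads on matched junctions, scaled to the junction reads of the library (horizontal axis) for the 20 matched GENCODE genes with most reads, with replicate 1 above replicate 2 for each gene. The bars of 4833411C07Rik were nearly equal, that of Gm27216 was shorter in replicate 1 (log2 ratio -0.26), and those of 1810008I18Rik (1.41) and Mug-ps1 (3.47) were longer in replicate 1.

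One stretch of chromosome 8 between Myo16 and 3930402G23Rik held 7 far contigs, on both strands. On the plus strand, contigs of 945 and 12901 nt with signals of 12.8 and 8.27 carried all 3 introns of 4833411C07Rik, with 2197 reads in replicate 1 and 1842 in replicate 2. On the minus strand, contigs of 2756 and 331 nt carried the single intron of Gm2814, with 192 reads in replicate 1 and 149 in replicate 2. The intron of Gm2814, 1113 nt from chr8:10899229 to chr8:10900343, spanned the intron of 4833411C07Rik from chr8:10900151 to chr8:10900265 whose joint is printed above. Farther to the left, Gm32540 had 406 reads in replicate 1 and 346 in replicate 2 over both of its introns. None of these 3 genes was in the annotation of the TPM tables. Across the genome, 15 far contigs had a far contig of the other strand within 1 kb.

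The groups with the most contig length were long, weakly covered and partly known. The largest, 8 contigs with 32506 nt over 33485 nt on the minus strand of chromosome 12 at chr12:111228796-111262280, had signals from 0.536 to 3 and lay 241131 nt from the nearest gene. Its junctions had 602 reads in replicate 1 and 566 in replicate 2, and both introns of Gm34667 matched, with 51 reads in replicate 1 and 25 in replicate 2. The second, between Prkar2b, a regulatory subunit of protein kinase A, and Pik3cg, a phosphoinositide kinase gene, held 28583 nt in 2 contigs with signals of 2.10 and 4.21 and had 1692 and 1471 junction reads. Its matched gene, 5430401H09Rik, accounted for 67 of these reads in replicate 1 and 62 in replicate 2. The third, between Rxylt1 and Avpr1a, matched Gm36041, all 5 introns of which were found when 1 more contig farther right was included, with 228 reads in replicate 1 and 213 in replicate 2.

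Other large groups had no match. The 3 contigs between Ugt2a3 and Ugt2b38, genes of enzymes that attach glucuronic acid, held 23562 nt with 173 junction reads in replicate 1 and 123 in replicate 2. The 4 contigs between Rpl37a and Igfbp2, an insulin-like growth factor binding protein gene, held 20826 nt with 688 and 563 reads. A single intron of 1216 nt between 2 of these 4 had 352 reads in replicate 1 and 242 in replicate 2. The 3 contigs between Gm16079 and Gm13049 on chromosome 4 held 18853 nt with 41 reads in replicate 1 and 108 in replicate 2. This was the only one of the 10 largest groups in which replicate 2 had more than 2 times the reads of replicate 1 before scaling.

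The 8 longest far contigs were all spliced. Besides that of Gm27216 they had 21104, 19394, 16922, 16006, 14286, 13129 and 13018 nt, with signals from 0.504 to 4.21. The contig of 19394 nt on the minus strand at chr5:53364257-53383650 matched 5033403H07Rik, with 364 junction reads in replicate 1 and 245 in replicate 2. The contig of 16922 nt between Adcy2 and Tent4a had no match and 60 and 78 reads. The 8 held from 4 to 50 junctions each.

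Some far contigs were spliced into annotated genes. Junctions of at least 10 reads joined 22 far contigs to an annotated exon on the same strand, through 54 junctions. Of these, 22 came from 1 contig of 11550 nt that matched the pseudogene Cyp3a63-ps and led to exons of cytochrome P450 genes of the Cyp3a family, and 8 came from contigs of Mug-ps1 to Mug1 and Mug2. Genes of these families are close copies, so a read may be placed on the wrong one and these junctions are uncertain. The other 24 junctions belonged to 17 contigs, of which 14 lay on the 5 prime side of an exon they joined and 4 on the 3 prime side. Some of these also led to genes with close copies, such as Ly6c1 and Ly6c2.

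A contig of 4333 nt at chr15:66956865-66961197, on the minus strand 10943 nt upstream of St3gal1, a sialyltransferase gene, led to it through an intron of 14195 nt with 447 reads in replicate 1 and 412 in replicate 2. A contig of 579 nt at chr3:116568822-116569400, on the plus strand upstream of the ferric reductase gene Frrs1, led to it with 395 and 449 reads. Both were among the well used junctions of the far contigs in both replicates. A contig 23758 nt from Papss2, which makes the sulfate donor of the cell, had 143 and 100 reads, and a contig 259618 nt from Dpf3, a chromatin remodelling subunit, had 108 and 81.

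The most strongly covered far contigs were not the longest ones. The 12 of highest signal were 266 to 948 nt long, and the strongest, chr3:5860318-5860829 on the plus strand, had 512 nt, a signal of 4010 and 134366716 aligned bases. It ranked 5 among all 53181 contigs of the same length and signal minimum, and held 27.6% of all bases aligned to far contigs. The 10 with most aligned bases held 50.6%. The next in signal were chr18:68851709-68851974 at 896, chr14:105114984-105115302 at 772, chr6:66825256-66825769 at 548 and chr1:104524658-104524924 at 411.

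Of these 12, 11 held junction ends, while chr1:104524658-104524924 held none, and the reads on each junction were few beside the contig's depth. The strongest contig held 47 junctions of at least 2 reads, none with the flag C of 1, and the most used had 128 reads, 0.0488% of the contig's mean read depth. Introns in it were as short as 32 nt. In 10 of the other 11 the most used junction stood at 0 to 0.475% of the mean depth. The exception was chr10:45595089-45595910, where it stood at 3.14%. When a junction was counted only if it reached 10% of the contig's mean depth, 49.6% of 351 far contigs with a signal under 1 held one. The share was 43.4% from 1 to 2, 29.2% from 2 to 5, 14.6% from 5 to 10, 2.33% of 43 contigs from 10 to 50 and 0 of 24 at 50 or more. Read depth stands on both sides of this relation, so a fall with signal is partly built in, and it is a description. With every junction of at least 2 reads counted, the share did not fall in this way. It was 59.5% under a signal of 1, 48.8% from 5 to 10 and 87.5% of the 24 at 50 or more.

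**Figure D3:**
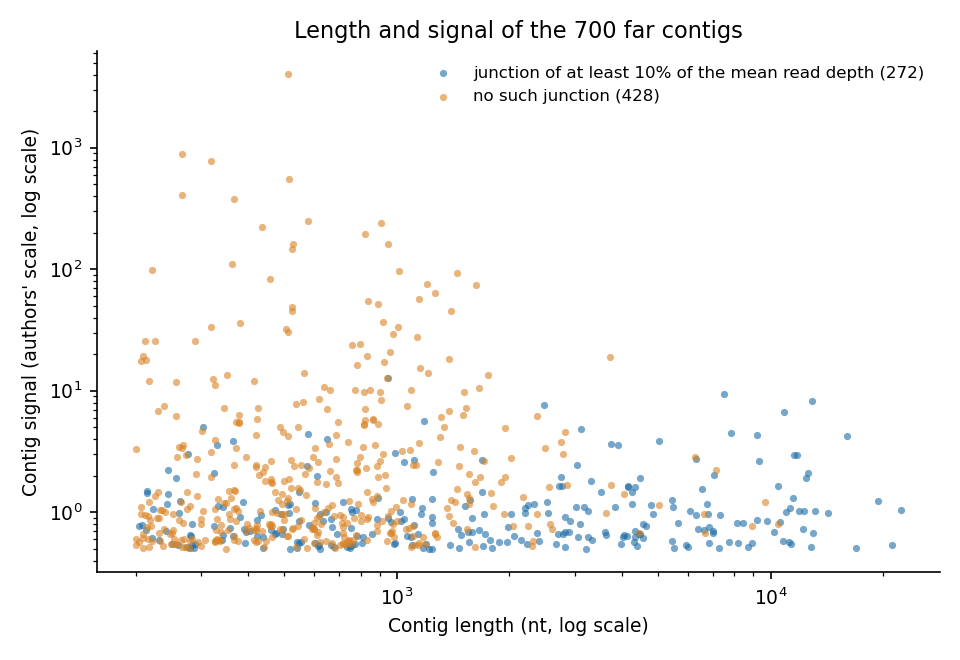
Length (nt, horizontal axis) and signal (vertical axis) of the 700 far contigs on log scales, coloured by whether a junction reached 10% of the contig's mean read depth. Contigs with such a junction were spread over all lengths at low signal and made up most of the longest, and none of the 24 contigs of signal 50 or more had one.

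Processed pseudogenes lay between the flanking genes of many of these contigs. On the same strand, 1 or more stood between the flanks of 425 of the 700, namely 76.1% of 284 far contigs without a junction end, 69.7% of 142 with a junction of 2 to 9 reads and 40.1% of 274 with a junction of at least 10 reads. Wider gaps between genes hold more pseudogenes, and the width was not taken into account. For 63 far contigs without a junction end there was exactly 1 such pseudogene whose length was within a factor of 2 of the contig's and that no other contig claimed. A parent gene was found for 57 of them, at 80% identity or more over at least 80% of the pseudogene, with a median identity of 95.5%.

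The parents were abundant genes at the median, but not all of them were. Among the 57, with 48 distinct parents, 13 had a ribosomal protein gene as the closest parent, and 54 had a parent in the TPM tables. A parent was counted once for each contig, and parents of pseudogenes elsewhere were not compared. One parent, Xpo4, had 2.74 TPM in replicate 1 and 3.17 in replicate 2. The median parent level was 114 TPM in replicate 1 and 121 in replicate 2, against 3.91 and 4.26 TPM for the 17137 protein-coding genes above 0 in either replicate. Of the pseudogenes themselves, 17 were in the TPM tables, and none exceeded 0.19 TPM in replicate 1 or 0.17 in replicate 2. The reads of parent and copy can be shared out differently by each method, so no level is given to a copy here.

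Several contigs had the length of the copy. The contig at chr1:104524658-104524924 and Gm20281 both measured 267 nt, the contig matched to Gm43442 and that pseudogene both measured 414 nt, and the contig matched to the copy CT485613.4 of the ribosomal protein gene Rpl7 had 818 nt against 816 nt. The median contig length was 100% of that of its pseudogene, but the match itself required lengths within a factor of 2, so this is no support for it. The parent's signal was taken as the mean over whole contigs that touched its exons, weighted by contig length. Bases of such contigs outside the exons counted too, so it is not a measure of the exons alone. On this scale, the far contig had a median of 25.1% of its parent's signal, and 10 of the 53 contigs whose parent had a signal exceeded it. The contig matched to Gm20281 had a signal of 411, against 5.87 for its parent Lyrm2. The contig matched to Gm7858 had 36.2, against 8.06 for Hmgb1.

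**Figure D4:**
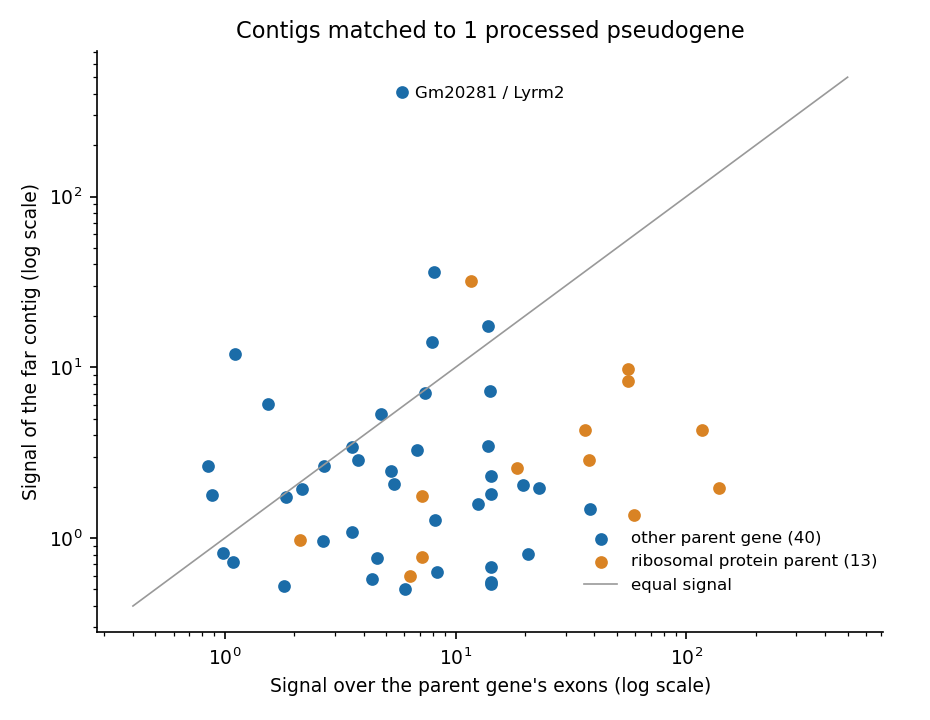
Signal of a far contig matched to 1 processed pseudogene (vertical axis) against the signal of its parent gene (horizontal axis), both on log scales. Ribosomal protein parents are shown apart, and the parent's signal is the length-weighted mean over whole contigs that touch its exons. Most contigs lay below the line of equal signal, and the contig matched to Gm20281 lay farthest above it, at 411 against 5.87.

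The tables on the newer build gave the same copies very few reads. The strongest contig had bases worth 1330360 full-length reads and a signal of 4010. Whole contigs that touched exons of Ubb had a mean signal of 126, weighted by length. The strongest contig lay between flanking genes that enclose Gm8797 in GENCODE M21, a gene of 490 nt on the same strand. M21 lists Gm8797 as protein-coding, not as a processed pseudogene, and it is 98.2% identical to Ubb over 384 nt. Gm8797 had 95.7 estimated counts in replicate 1 and 119 in replicate 2, while Ubb had 939 TPM in replicate 1 and 981 in replicate 2. Gm20281 had 0 estimated counts in both replicates, against bases worth 71143 reads on the contig matched to it. Gm7858 likewise had 0 in both, against 8898. The contig values pool both replicates and count single reads, while the estimated counts are for each library of paired reads. Build, annotation and read placement also differed at once between these values, and their parts were not tested.

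As for Gm8797, the copy was uncertain for the other strongest contigs. The only same-strand processed pseudogene between the flanks of chr18:68851709-68851974, AC021063.1, was 77.8% identical to its closest parent Esd, under the minimum of 80%. Between the flanks of chr10:45595089-45595910 stood Gpx4-ps2, a transcribed pseudogene of 796 nt on the same strand, for a contig of 822 nt. It was 99.7% identical to Gpx4, which encodes a peroxidase of lipids, at 291 TPM in replicate 1 and 312 in replicate 2. Between those of chr10:114707001-114707527 stood Gm8942, 97.5% identical to the ribosomal protein gene Rps24, at 1946 and 1933 TPM. The contigs chr6:66825256-66825769, chr8:15519764-15520131, chr3:53496265-53496842, chr6:3150765-3151673 and chr13:3298096-3299043 had 2 or more same-strand pseudogenes between their flanks, and none was chosen. The contigs chr14:105114984-105115302 and chr2:22600240-22600674 had no M21 gene lying wholly between their flanks. This was the case for 105 far contigs in all, with any whose flanks overlap in M21 counted among them. M21 genes that reach into a flank were not searched.

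The replicates differed little over most far-contig junctions. Of 255 junctions of at least 50 reads with an end in a far contig, 231 lay within 2-fold after scaling by all junction reads. The median log2 ratio of replicate 1 over replicate 2 was 0.04, against -0.09 over 121992 junctions of at least 50 reads. More than 2-fold higher in replicate 1 were 17 of the 255, or 6.67%, against 1.12% of all junctions, and more than 2-fold lower were 7, or 2.75%, against 1.33%. Over junctions of 50 to under 200 reads, where most of those of far contigs stood, the shares were 8.20% of 183 higher, against 2.08% of all, and 3.83% lower, against 2.83%. The 17 came from 12 contigs and the 7 from 7, so that they are fewer events than junctions.

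Mug-ps1, a transcribed pseudogene of the murinoglobulins, which are plasma protease inhibitors made by liver, gave 6 of the 17. Over its 12 matched junctions, in 5 far contigs between Gm10319 and Klrg1, it had 574 reads in replicate 1 and 43 in replicate 2, and its level was 3.37 TPM in replicate 1 and 0.36 in replicate 2. All its junctions of at least 50 reads were higher in replicate 1, by a log2 ratio of 3.08 to 4.93. The genes like it ran the same way: Mug1 had 1270 junction reads in replicate 1 and 152 in replicate 2, and Mug2 had 622 and 14. Reads may be shared among these copies. Without the Mug-ps1 junctions, 4.42% of 249 were more than 2-fold higher in replicate 1. The pancreas acinar markers, at 51.0 TPM in replicate 1 and 0.74 in replicate 2, and 3 of the 4 muscle markers also ran in this direction, and their part in the result was not tested.

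The remaining junctions higher in replicate 1 included 2 of the contig of 1810008I18Rik, 3 of the contig of Cyp3a63-ps, and the single intron of Gm44427 between Thnsl2 and Fabp1, the liver fatty acid binding protein gene, with 73 reads in replicate 1 and 28 in replicate 2. Among those lower in replicate 1, an intron matched to Gm43305 had 11 reads in replicate 1 and 55 in replicate 2, an intron of AU020206 had 26 and 71, and an intron of Gm29264 had 14 and 39. In TPM, AU020206 had 6.34 in replicate 1 and 8.08 in replicate 2, a log2 ratio of -0.35, smaller than the -1.51 over its junctions.

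**Figure D5:**
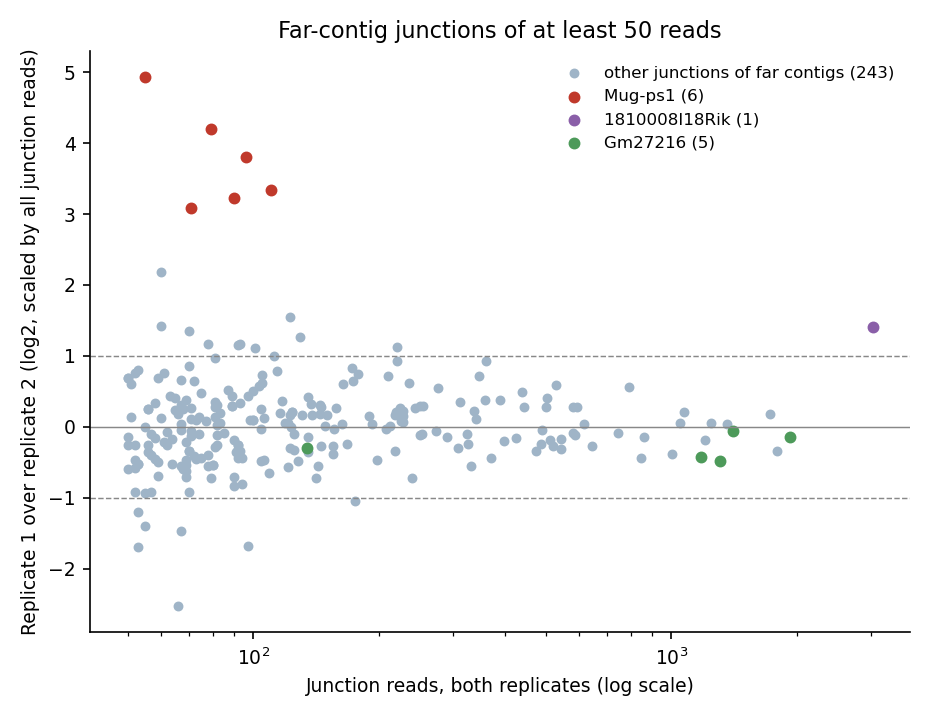
Log2 ratio of replicate 1 over replicate 2 (vertical axis, scaled by all junction reads) against total reads (horizontal axis, log scale) for the 255 far-contig junctions of at least 50 reads, with dashed lines at 2-fold. Mug-ps1 junctions lay between 3.08 and 4.93, the main junction of 1810008I18Rik at 1.41, and 231 of the 255 lay within 2-fold.

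Transcripts assembled by the authors covered most far contigs. On the same strand, an assembled exon overlapped 645 of 700, or 92.1%, against 78.7% of the contigs outside genes but within 10 kb of one and 91.2% of those on annotated exons. They belonged to 974 assembled transcripts, of which 32, over 27 far contigs, also shared bases with an annotated exon. Of the 974, 773 had 2 or more exon records, but in 336 of these every gap between exons was under 50 nt. Among the 12 strongest contigs, the best expressed model had 1 exon record over 4 contigs and 2 over the strongest, while over the others it had 9 to 41. A further model over chr6:3150765-3151673 had 22 exon records between chr6:3150768 and chr6:3151737.

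The RPKM of assembled transcripts over far contigs was close to that of all assembled transcripts. The median mean was 0.246 over the 413 of far contigs at 0.1 or more, against 0.260 over all 19272 at 0.1 or more. The median log2 ratio of value 1 over value 2, with 0.1 added to each, was 0.05 over far contigs and 0.06 over all. More than 2-fold higher in value 1 were 25 of 413, or 6.05%, against 5.95% of all, and more than 2-fold lower were 16, or 3.87%, against 4.96%. The far contigs were thus close to the background in both directions.

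At a mean of at least 1 RPKM, the transcripts at either end of the ranking by ratio included the following. A model over the contig of Gm32540 had 3.70 in value 1 and 0.814 in value 2, while another model over it had 1.57 and 2.03. Models over chr6:3150765-3151673 had 2.80 in value 1 and 0.577 in value 2 for one, and 0.557 and 3.09 for another. Models of 1 place thus ran in both directions. Also higher in value 1 were a model between BC048507 and Mtrr, at 8.52 in value 1 and 4.26 in value 2, and a model between BC024139 and Plec, at 1.51 and 0.858. Lower in value 1 was a model 485324 nt from its nearest gene, Gm9001, at 5.77 in value 1 and 8.12 in value 2. Models between Cdk20 and Cntnap3, at 0.870 and 1.19, between the carbonic anhydrase genes Car1 and Car3, at 1.20 and 1.58, and between Kcnf1 and Pdia6, at 1.83 and 2.38, were lower in value 1 too.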

How the data were processed

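The authors' deposited contig list gives a signal, a score and a whole count of aligned bases for each contig over both replicates on mm9, and the deposited junction list gives a whole count of reads for each replicate. The deposited mm9 tables of ENSEMBL genes and of assembled transcripts give RPKM. The authors' deposited mm10 tables give TPM and estimated counts for each gene. The sources used here do not name the aligner, the assembler or the quantifier. No new alignment was made, and no column of another series was present.

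Distances, overlaps and junction ends were computed with pandas 2.3.3, and checked on simulated data. Junction ratios had 0.5 added to each count and were scaled by all junction reads. Copies were compared with blastn 2.17.0 on the plus strand. Sequences are from GENCODE M21 transcripts on GRCm38. No test was run, since there is 1 group. Named were the 12 strongest and 8 longest contigs, those next to each threshold, the 10 largest groups, the 10 most used junctions and the 5 assembled transcripts farthest apart each way. Of these, 1 assembled transcript, the farthest apart of them, is not reported here. The far contigs, these lists and the matches to GENCODE were chosen with earlier results of these data known. Variation between libraries beyond counting error was not estimated.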

Additional observations from a re-analysis of the deposited data

How the results depend on the processing

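The count of 700 far contigs moved with its thresholds, to 349 with a signal of at least 1, 1332 with 0.25, 261 at over 50 kb from a gene, and 1277 when only genes of the same strand counted. Lengths of 500 or 100 nt, distances of 20 or 5 kb, wider gene spans and leaving out unplaced chromosomes kept it between 472 and 892. The 592 groups became 598 or 584 with other joining distances. The 59.4% with a junction end depended most on how a junction was counted: 79.9% at 1 read, 39.1% at 10 reads, 68.4% over contigs of at least 500 nt and 52.5% over 50 kb from a gene. Without one replicate it was 50.6% to 55.3%. Chosen after seeing the data, it was 42.0% with the flag C of 1, 38.9% at 10% of the contig's mean depth and 65.3% without contigs matched to 1 processed pseudogene. The 92.1% under an assembled transcript became 82.7% when it had to cover at least 50% of the contig, 75.6% for transcripts of 2 or more exons, 44.1% with a gap of at least 50 nt between exons (also chosen after seeing the data), and 84.7% to 85.4% without one of the 2 RPKM values. The median log2 ratio of assembled transcripts stayed between 0 and 0.06, and the share with a score of at most 0.1 stayed at 100%. The cause of these shifts was not tested beyond what each setting removes. No paired analysis was possible because there is only 1 group. Ratios of junctions with few reads carry large counting error.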

Other observations

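The numbering of the paired values differed between the deposited tables. Ctrb1, a pancreas acinar gene, had 3702 junction reads in replicate 1 and 21 in replicate 2, and 35.7 TPM in replicate 1 and 0.22 in replicate 2, but 0.0411 RPKM in value 1 and 5.32 in value 2. Eif2s3y, a Y-linked gene, had 34 junction reads in replicate 1 and 5909 in replicate 2, but 6.67 RPKM in value 1 and 0.0180 in value 2. A ratio taken from the RPKM tables by number alone would run against one taken from the junction list.

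The far contig at chr14:105114984-105115302 had a signal of 772 and 16099043 aligned bases, and its assembled transcript had 196 RPKM in value 1 and 244 in value 2. No GENCODE M21 gene was found lying wholly between its flanking genes Gm25724 and Gm24280.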
